A study of Sus scrofa with 12 samples.

Results

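Loop anchors of skeletal muscle from Large White (LW) pigs were compared with the rest of the genome for the RNAs that were found on their chromatin. The members were the 5-kb bins of chromosomes 1 to 18 and X that were an anchor of an H3K27ac loop in both LW loop lists. There were 30584 such bins among 478296, against 417919 bins that were an anchor in neither LW list. A further 29793 bins were an anchor in 1 LW list only and served as an intermediate class. The choice of bins used the loop lists alone, and no RNA value entered it.

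A chromatin loop brings 2 distant stretches of a chromosome close together, and its ends are called anchors. BL-HiChIP ligates neighbouring DNA ends through a bridge linker and pulls down those on chromatin with a chosen mark. The mark here was H3K27ac, the acetylated histone found at promoters and enhancers in use. GRID-seq links each RNA in the nucleus to the DNA beside it, and so lists where in the genome a chromatin-associated RNA (caRNA) is found. Most RNAs stay near the gene that made them, whereas some abundant transcripts, spliceosomal RNAs and long non-coding RNAs are known to be found on many chromosomes.

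The tissue was longissimus muscle of male LW and Meishan (MS) piglets aged 2 weeks, untreated, with 2 libraries of each assay for each breed. All the values here are of LW unless MS is named. Nothing in the labels shows whether the 2 libraries of an assay came from separate animals, so the spread between libraries may be technical. The LW loop lists held 57028 and 43282 loops with 51933 and 39028 anchor bins, of which 58.9% and 78.4% were anchors in both lists. The LW GRID-seq lists held 571 and 681 RNAs with 8181721 and 9943666 reads of these RNAs, and library 2 listed more pairs of RNA and bin, 210568 against 170849. Muscle RNAs were listed: 23 and 24 of the 32 sarcomere genes placed on the genome had an RNA listed under their name. These were 71.9% and 75.0%, against 1.91% and 2.28% of all annotated protein-coding genes. RNAs were listed for 0 of 8 adipocyte, 0 of 8 endothelial and blood vessel, 0 of 8 immune and blood cell and 0 of 7 nerve marker genes. With so low a share over all genes, lists of 7 or 8 genes with 0 listed cannot set the tissue apart. The fibroblast markers COL1A1, COL1A2 and COL3A1 were listed in both libraries, 3 of 8. In a bulk tissue, fewer cells of a type and less RNA per cell cannot be told apart. Listed signal is smooth, with no stretch shorter than 21 kb, so that neighbouring bins share signal and are not independent, and for that reason no p-value over bins is given. Each value is given for GRID-seq library 1 and then library 2, and the ratios carry the SD over these 2 libraries.

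Anchors carried RNA more often than other bins. At least 1 RNA was listed on 13604 anchor bins (44.5%) in library 1 and on 17643 (57.7%) in library 2, where the share over all bins was 29% and 32.9%. Bins that were an anchor in 1 list had an RNA in 38.5% and 50.2%, and bins that were an anchor in neither had one in 27.1% and 29.8%. The share was 1.79 ± 0.210 (SD, n = 2) times as high on anchors as on non-anchors. Both libraries put anchors above the intermediate class and that class above the non-anchors. The 95% Wilson intervals of the anchor shares were 43.9 to 45.0% and 57.1 to 58.2%. They cover counting error only and treat bins as independent, so they are too narrow where neighbouring bins share signal.

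**Figure D1:**
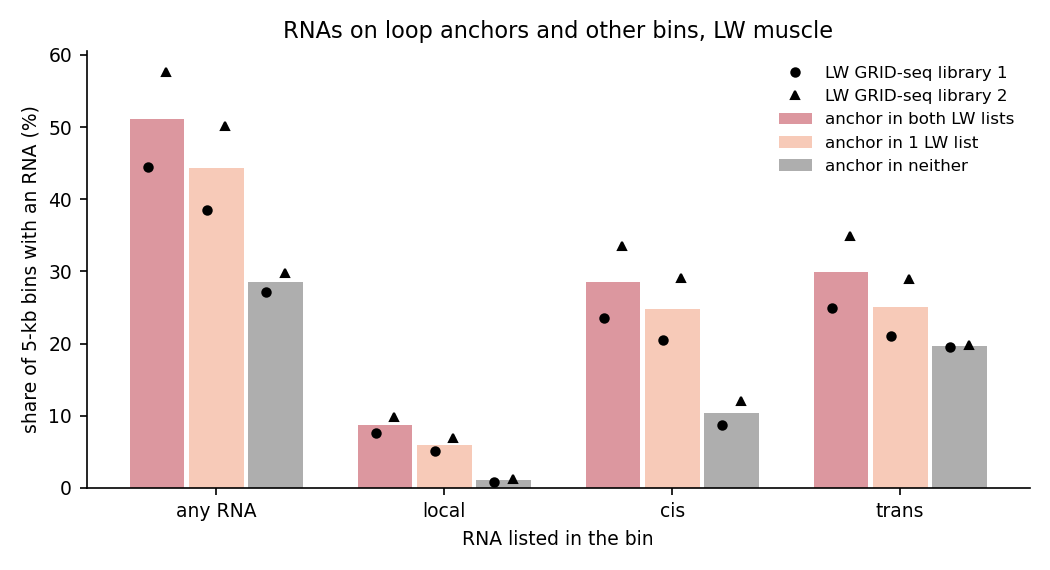
Share of 5-kb bins (%) with any RNA, or with a local, cis or trans RNA, for bins that were an anchor in both LW loop lists, in 1 or in neither; bars are means over the 2 LW GRID-seq libraries, circles library 1 and triangles library 2. The anchor bins are highest for each kind of RNA, and the ratio of anchors to non-anchors is largest for local RNAs (7.56% and 9.79% against 0.872% and 1.16%) and smallest for trans RNAs.

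More RNAs shared an anchor bin as well. An anchor bin held on average 0.676 and 1.01 RNAs, and a non-anchor bin 0.320 and 0.373, a ratio of 2.41 ± 0.417 (SD, n = 2). Bins with 3 RNAs made up 3.29% and 6.71% of anchors but 0.419% and 0.899% of non-anchors. Up to 11 and 12 RNAs were listed on an anchor bin, and up to 18 and 20 both on a bin that was an anchor in 1 list and on a non-anchor bin. Anchor bins listed in 1 library were listed in the other more often than non-anchor bins were. Of the anchor bins with an RNA in library 1, 79.1% had one in library 2, and 61.0% the other way round. For non-anchors these were 47.5% and 43.3%. Anchors also had the higher share in each library, which alone raises such overlap, and overlap beyond that was not tested. In all, 35.2% of anchors had an RNA in both libraries, against 12.9% of non-anchors and 15.3% of all bins.

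The RNAs were divided by where they came from. Local RNAs lay within 10 kb of their own gene, cis RNAs elsewhere on the same chromosome, and trans RNAs on other chromosomes. The summed signal per bin, which is relative to the reads of each RNA, was highest for local RNAs. It was 327 and 359 on anchors against 24.9 and 28.3 on non-anchors, a ratio of 12.9 ± 0.316 (SD, n = 2). The cis signal was 47.5 and 73.6 against 9.42 and 14.8, a ratio of 5.02 ± 0.0388. Against non-anchors within 100 kb of an anchor alone, the local ratio was 5.64 and the cis ratio 2.46. The trans signal was 1.70 and 2.43 against 0.705 and 0.770, a ratio of 2.78 ± 0.528. In no case did the libraries of the 2 bin classes overlap. Part of each ratio came from more bins and part from stronger signal: where an RNA was listed, the local signal of anchors was 1.51 ± 0.00475 times that of non-anchors, the cis signal 1.82 ± 0.0515 times and the trans signal 1.83 ± 0.0621 times.

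Anchors differ from other bins in what they contain. An annotated gene overlapped 78.6% of anchors and 57.2% of non-anchors, a gene end lay in 25.6% against 7.45%, and 10.1% against 1.25% lay within 10 kb of the gene of a listed RNA. Among bins over a gene the share with any RNA was 45.3% and 59.1% on anchors and 27.96% and 31.7% on non-anchors. Among bins over no gene it was 41.4% and 52.5% against 26.1% and 27.3%. Bins farther than 10 kb from the gene of every listed RNA had 39.5% and 53.0% against 26.5% and 29.0%. The gap between anchors and non-anchors therefore stood in each of these sets. It was not found for trans RNAs over no gene in library 1, where 20.2% of anchors and 20.3% of non-anchors had a trans RNA, while library 2 had 28.7% against 19.8%.

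Bins were then compared within classes of distance from the RNA's own gene, by taking each pair of RNA and bin on its own. Inside the gene nearly every bin was listed, on anchors (99.3% and 99.4% of pairs) as on non-anchors (95.5% and 96.96%). Between 10 and 50 kb from the gene 45.3% and 51.5% of anchor pairs were listed, and 41.9% and 48.2% of non-anchor pairs, a ratio of 1.07 ± 0.00719 (SD, n = 2). Between 100 and 500 kb the shares were 14.5% and 17.4% against 12.6% and 15.0%, a ratio of 1.16 ± 0.00539. Up to 100 kb outside the gene, the ratio of the shares listed thus lay between 1.01 and 1.08 in the 2 libraries. Measured from the nearest gene end, it was 1.15 at 10 to 50 kb and 1.20 at 50 to 100 kb. The signal differed more than the listing. Where listed, the median signal of anchor pairs was 1.78 and 1.65 times that of non-anchor pairs inside the gene, and 1.32 times in both libraries at 10 to 50 kb.

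Farther out, the ratio of the shares listed was higher. Inside the gene nearly all non-anchor pairs were listed, so the ratio there could not lie far above 1. Part of its rise with distance was therefore set in advance. Between 500 and 1000 kb the ratio was 1.34 ± 0.0439, and beyond 1000 kb it was 2.92 ± 0.260, with 0.458% and 0.620% of anchor pairs listed against 0.167% and 0.200% of non-anchor pairs. The ratio stayed between 2.01 and 3.64 in each finer class beyond 1 Mb, in both libraries, and was 2.03 ± 0.0224 at 1 to 2 Mb and 3.40 ± 0.328 at 20 to 50 Mb. On other chromosomes it was 1.46 and 2.14. In percentage points the gap was smaller beyond 1000 kb than at 10 to 50 kb. The median signal of listed pairs beyond 1000 kb was 1.99 and 1.52 times as high on anchors as on non-anchors. Inside the gene these signal ratios were 1.78 and 1.65, so the signal ratio was higher far out in library 1 only. The classes were then weighted by where the anchors lie, with all bins beyond 1000 kb as 1 class. Cis listing beyond 10 kb was 1.71 and 1.84 times that expected from non-anchors, and 1.93 and 2.10 times when each RNA was compared with itself only. For the stretch from 10 kb to 1 Mb alone these were 1.15 in both libraries, and 1.37 and 1.38 within the same RNA.

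**Figure D2:**
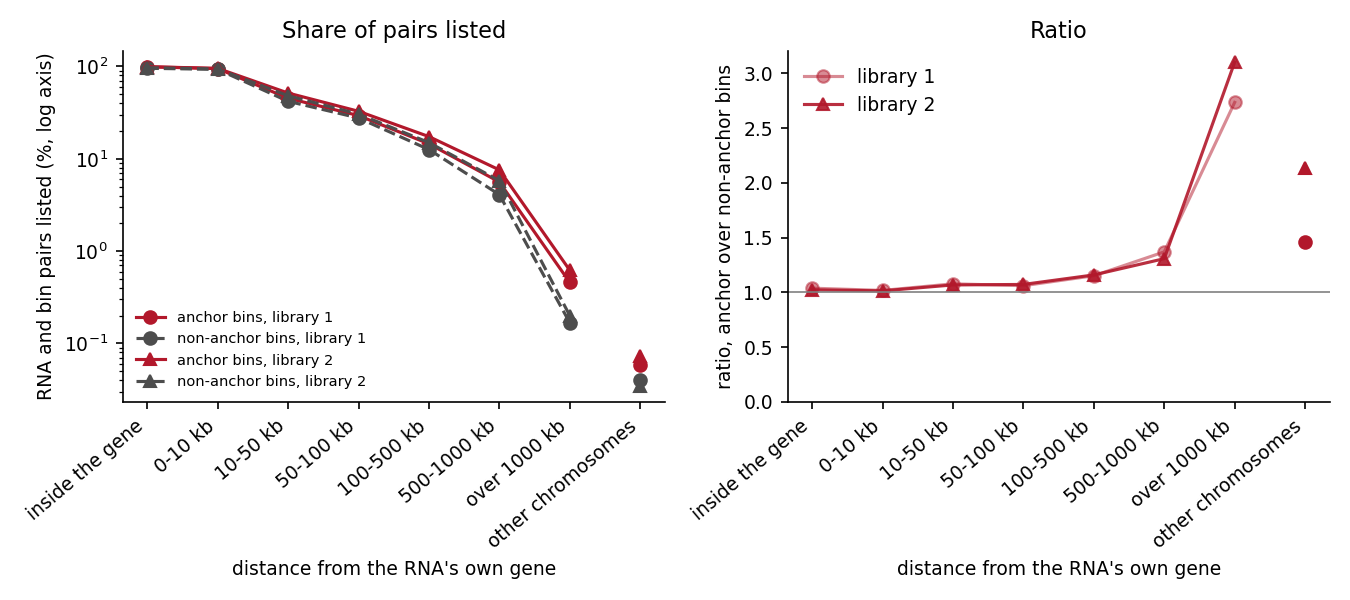
Left, share of RNA and bin pairs listed (%, log axis) against distance from the RNA's own gene, for anchor bins (red) and non-anchor bins (grey); right, the ratio of the 2 shares; circles are library 1 and triangles library 2. The ratio is close to 1 inside the gene and up to 100 kb and reaches 2.74 and 3.10 beyond 1000 kb; other chromosomes are set apart because they have no distance.

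Anchor bins that share a loop with the RNA's gene were compared with anchor bins in the same distance class that do not. The classes are wide, and distance within a class was not held fixed. A pair counted as joined where both LW lists held a loop between the bin and a bin of the gene, and as not joined where neither did. At 10 to 50 kb 198 of 312 joined pairs (63.5%) were listed in library 1 and 264 of 377 (70.0%) in library 2, against 34.5% and 41.9% of pairs not joined. At 100 to 500 kb the joined pairs had 48.3% and 52.4%, and the others 11.5% and 14.2%. At 500 to 2000 kb only 14 of 52 and 17 of 59 joined pairs were listed, 26.9% and 28.8%, against 4.22% and 5.72%. Joined pairs were thus listed more often in each distance class and in both libraries.

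The gap was smaller within single RNAs. Over all distance classes joined pairs were listed 2.54 and 2.35 times as often as pairs not joined in the same class. Whether joined bins lay nearer the gene within a class was not tested. When each RNA was compared only with itself, the ratio fell to 1.30 and 1.24. The joined pairs came from 320 and 391 RNAs. Several of the widest-spreading RNAs were listed on nearly every nearby anchor, joined or not. C1orf21 RNA was on 9 of 9 joined anchor bins in both libraries and on 111 and 122 of 125 that were not joined. RNA of MYO18B, an unconventional myosin of striated muscle, was on the 1 joined bin and on 89 and 95 of 98 others.

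**Figure D3:**
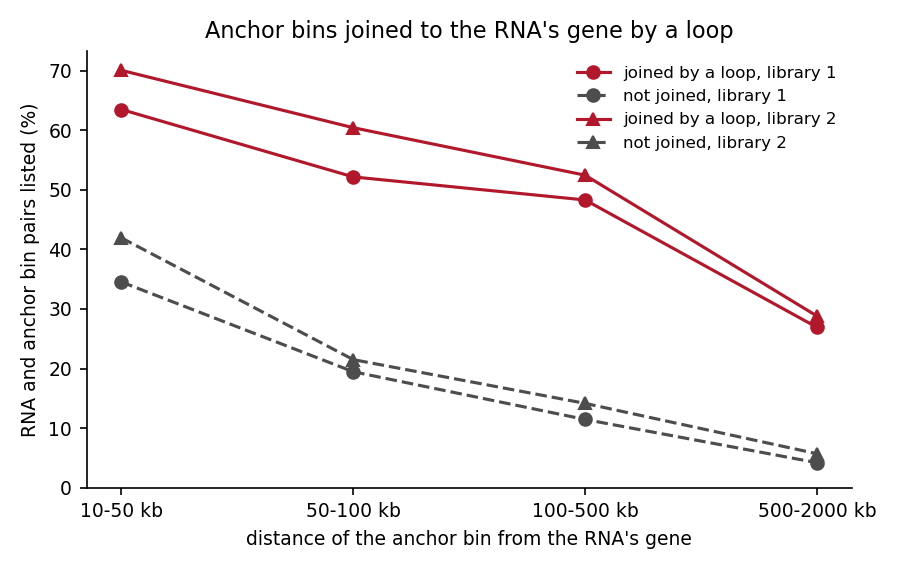
Share of RNA and anchor bin pairs that were listed (%) by distance of the bin from the RNA's gene, for anchor bins joined to the gene by a loop in both LW lists (red) and not joined in either (grey); circles are library 1 and triangles library 2. The joined pairs lie above the others in all 4 distance classes, at 63.5% and 70.0% against 34.5% and 41.9% nearest the gene.

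The share with RNA rose with the number of loops at an anchor. Anchors with a mean of 1 loop over the lists had an RNA in 39.4% and 51.6% of 7440 bins, those with over 2 to 5 loops in 47.2% and 61.2% of 9744, and those with over 10 in 61.8% and 73.5% of 411. Anchors with many loops lay near listed RNA genes more often: 26.5% of the last class and 7.45% of the first lay within 10 kb of the gene of a listed RNA. Without all such bins, the shares went from 35.5% and 47.8% with 1 loop to 52.3% and 63.9% with over 10. In library 2 the class with over 5 to 10 loops was as high, at 64.2%.

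Many loops did not always mean many RNAs. The bin with most loops, 39 and 41 in the 2 lists, was chr13:125395001-125400000 at BCL6, a transcriptional repressor gene. It held 3 and 5 RNAs, among them those of BCL6 itself and of MBNL1, whose gene lies elsewhere on chromosome 13. The next was a bin over no annotated gene, chr1:4245001-4250000, with 25 and 33 loops. It held RNA of QKI, an RNA-binding protein gene on the same chromosome, in both libraries. By contrast, no RNA was listed in either library on chr12:10360001-10365000 at KCNJ2, a potassium channel gene, which had 18 and 35 loops.

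The 10 anchor bins with most RNAs lay at RYR1, inside TTN and in 2 stretches of chromosome 12. On chr6:47340001-47345000, at RYR1, which encodes the calcium release channel of the sarcoplasmic reticulum, 10 and 11 RNAs were listed. In each library 5 of them were unnamed transcripts local to RYR1, so they may be pieces of 1 gene's RNA, and ASPDH RNA came from elsewhere on the chromosome. On chr12:51955001-51960000, over ENO3, the muscle enolase of glycolysis, 8 and 12 RNAs were listed. Both libraries had there the RNAs of ENO3 and of its neighbour PFN1, an actin-binding protein, together with KIF1C in cis and TTN and U4 in trans. In library 2 U4 counts there 2 times, from 2 places in the genome. A bin inside TTN, chr15:84405001-84410000, had 11 and 9 RNAs, with U4 and U5, 2 small nuclear RNAs of the spliceosome, in both libraries. The count includes U5 from 2 places in the genome and ENSSSCG00000034677, ENSSSCG00000038561 and ENSSSCG00000042430, which are placed inside TTN and may be pieces of its RNA. At chr12:53370001-53375000 over PER1, a circadian clock gene, 7 and 10 RNAs were listed, of which TTN, U4, ENSSSCG00000048037 and ENSSSCG00000044834 were trans in both. Here too U4 counts 2 times in library 2.

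Few RNAs made up the trans contacts. On anchors there were 9555 and 14433 trans pairs from 56 and 66 RNAs, and the 3 most frequent RNAs held 63.6% and 64.4% of them, the 10 most frequent 94.97% and 95.3%. Repeat listing was low: 18.8% of the trans pairs of library 1 were in library 2, and 12.5% the other way round, against 65.3% and 42.8% of cis pairs and 90.0% and 69.8% of local pairs. On non-anchors 17.9% and 17.4% of trans pairs were shared. Trans results are therefore given as shares over many bins, and a single trans pair was seldom seen in both libraries.

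Most trans RNAs were more frequent on anchors. Of the RNAs with at least 100 trans bins, 13 of 14 and 16 of 17 covered a larger share of anchors than of non-anchors. ENSSSCG00000048037, listed by its Ensembl identifier and placed on chromosome 3 from 53631433 to 53653180, was on more anchors than any other trans RNA. This RNA was on 2802 (9.76%) and 5026 (17.5%) of the anchor bins of other chromosomes, against 2.83% and 5.41% of non-anchors. It had 326748 and 417569 reads but a local signal of only 2453 and 39.8, and how its reads were assigned was not tested. Of its trans bins, 17.4% and 9.26% were listed in both libraries. ENSSSCG00000048856, placed on chromosome 2 from 6752140 to 6757157, was on 2.87% and 4.64% of anchors against 0.644% and 0.966%. RNA of TTN, the giant spring protein of the sarcomere, was on 7.97% and 9.32% of anchors against 5.21% and 3.91%. RNA of NEB, which encodes the thin filament protein nebulin, was on 1.99% and 2.91% against 0.284% and 0.463%.

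Among the 10 trans RNAs with most anchor bins, a spliceosomal RNA had the highest ratio. U4 from chromosome 14 was on 1.04% and 1.81% of anchors and on 0.101% and 0.160% of non-anchors, 10.3 and 11.3 times as often on anchors. U4 has near-identical copies in the genome, so the assignment of its reads to this copy is uncertain, and 37.4% and 34.1% of its trans bins lay within 10 kb of the gene of a listed RNA. RNA listed under ASPDH was 9.43 and 9.38 times as frequent on anchors. For 9 of the 10 trans RNAs with most anchor bins the ratio was above 1 in both libraries.

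**Figure D4:**
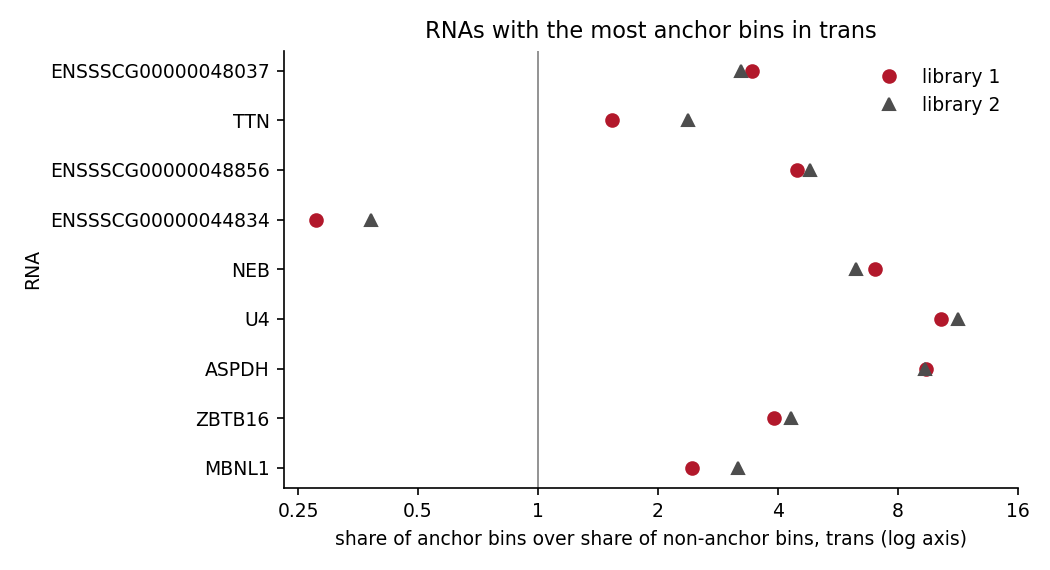
Ratio of the share of anchor bins to the share of non-anchor bins (log axis) on which each RNA was listed in trans, for 9 of the 10 RNAs with most anchor bins; circles are library 1, triangles library 2 and the line marks equal shares. ENSSSCG00000044834 lies at 0.278 and 0.381, left of the line, and the other 8 lie right of it, up to U4 at 10.3 and 11.3.

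ENSSSCG00000044834 did the reverse. This RNA, placed on chromosome 7 from 10797875 to 10925845, had the most trans bins of all and 906421 and 1003089 reads, about as many as TTN with 914086 and 1016278. It was on 968 (3.37%) and 1125 (3.92%) of the anchor bins but on 12.1% and 10.3% of the non-anchors, 0.278 and 0.381 times as often on anchors. The same was seen on its own chromosome beyond 10 kb, at 0.279 and 0.412 times by distance class, with all bins beyond 1000 kb in 1 class. No bin within 10 kb of its own gene was listed for it, in either library. As for ENSSSCG00000048037, how its reads were assigned was not tested. Of its trans bins 49.5% and 47.7% overlapped a gene, against 73.2% and 72.8% for ENSSSCG00000048037. Between the libraries, 24.2% and 28.3% of its trans bins were shared, 12152 bins of which 0.987% were anchors.

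With this RNA included, the trans share of non-anchor bins was not lowest far from anchors. It was 20.3% and 28.4% in the bins next to an anchor and 12.3% and 14.7% at 25 to 50 kb, and then went up to 26.3% and 27.1% beyond 1000 kb, above the 25.0% of the anchors themselves in library 1. Without ENSSSCG00000044834 it was lower in each class farther out, from 22.9% and 33.1% on anchors to 8.65% and 8.92% at 105 to 250 kb and 6.67% and 6.27% beyond 1000 kb. The RNA itself rose from 3.37% and 3.92% of anchors to 22.4% and 23.5% of the bins beyond 1000 kb. U4 went the other way, from 1.04% and 1.81% on anchors to no listed bin beyond 1000 kb. TTN was lowest near 25 to 50 kb from an anchor, at 2.99% and 2.76%, and was at 6.03% and 4.61% beyond 1000 kb.

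**Figure D5:**
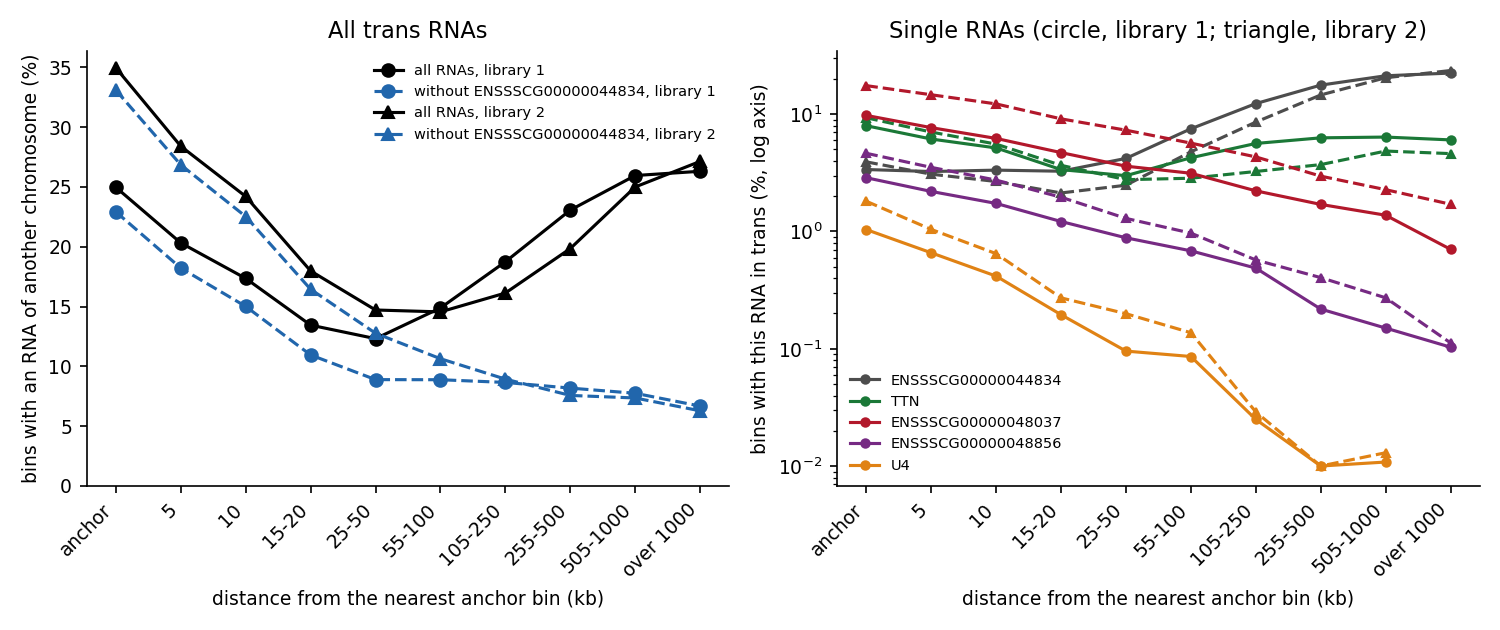
Left, share of bins (%) with any RNA of another chromosome on anchors and by distance of a non-anchor bin from the nearest anchor (kb), for all RNAs and without ENSSSCG00000044834; right, the same share for 5 single RNAs (%, log axis, where a share of 0 is not drawn); circles are library 1 and triangles library 2. With all RNAs the curve falls to 12.3% and 14.7% at 25 to 50 kb and climbs again, whereas without that RNA it ends at 6.67% and 6.27%.

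Leaving this RNA out also changed the comparison as a whole. It was the only RNA on 481 and 381 anchor bins, 3.54% and 2.16% of those with an RNA, and on 43389 and 37086 non-anchor bins, 38.2% and 29.8%. Without it 42.9% and 56.4% of anchors and 16.8% and 20.9% of non-anchors had an RNA, a ratio of 2.63 ± 0.0974 (SD, n = 2) in place of 1.79, and the ratio of the trans signal was 4.44 in place of 2.78. Bins with 2 or more trans RNAs were 5.09% and 9.04% of anchors and 1.86% and 2.05% of non-anchors.

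Cis contacts were spread over more RNAs. On anchors 8593 and 13096 pairs came from 378 and 491 RNAs, and the 10 most frequent RNAs held 36.8% and 32.6%. Of the RNAs with at least 100 cis bins, 87 of 89 and 133 of 140 were more frequent on anchors than on non-anchors at like distances, with a median ratio of 1.88 and 1.86. Like distances are the classes used above, in which all bins beyond 1000 kb count as 1 class. The exceptions in library 1 were ENSSSCG00000044834 and FYCO1, which was picked out after its values were seen, and both were also exceptions in library 2.

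RNA of MBNL1, a regulator of alternative splicing in muscle, was on the most cis anchors of any RNA. These were 683 and 963 bins of chromosome 13, or 27.8% and 39.2% of its anchors beyond 10 kb. By distance class it was 2.83 and 2.81 times as frequent on anchors, and 2.76 times in both libraries without the classes. The classes hardly adjust for distance in an RNA listed mostly beyond 1000 kb. RNA of ZBTB16, a zinc finger transcription factor, was on 489 and 623 anchors of chromosome 9, with a ratio of 2.60 and 2.65. TTN RNA was on 498 and 568 anchors of its own chromosome 15 (30.4% and 34.7%), with a ratio of 2.42 and 3.02. RORA, a nuclear receptor gene, had 326 and 393, CACNA2D1, which encodes a calcium channel subunit, 144 and 241, and TRDN, which encodes triadin of the calcium release complex, 152 and 228. Among the 10 RNAs with most cis anchors the ratios ranged from 2.12 for C1orf21 to 3.42 for ZBTB20, another zinc finger gene, in the 2 libraries.

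The 10 RNAs with the largest local signal on anchors included glycolytic and calcium-binding proteins of muscle and genes used in many cell types. PGAM2, the muscle form of a glycolytic mutase, had 110975 and 81377 on 3 anchor bins, 90.4% and 89.9% of its local signal. EEF1A2, the elongation factor form of muscle and nerve, had 112266 and 72478 on 3 bins. ATF4, a stress-response transcription factor, had 83402 and 86079 on 4 bins. ENO3, TPI1, which encodes a further glycolytic enzyme, and CASQ1, the calcium-binding protein of the sarcoplasmic reticulum, were among the 10 too, with 84.6% and 84.2% of the local signal on anchors for CASQ1 and 95.5% and 95.7% for ENO3. COL1A1, the collagen gene of fibroblasts, had 105129 and 58695. PGAM2 had only 1668 and 1748 reads and CASQ1 7018 and 7958, so that a large value here, which is relative to an RNA's own reads, does not mean an abundant RNA.

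Genes were also taken by role, from lists of muscle pathways and of other cell types. Of all annotated protein-coding genes 45.1% overlapped an anchor, and 46.2% and 59.8% of the anchor bins over them had an RNA. Among sarcomere genes, 28 of 32 had an anchor, and 94.3% and 100% of their 88 anchor bins had an RNA. Of the sarcomere genes 71.9% and 75.0% had a listed RNA, against 1.91% and 2.28% of all protein-coding genes. Their own RNA was on the anchor for 21 of these genes in each library, for example TNNC2 and TNNT3 of the troponin complex and the Z-disc genes ACTN2, LDB3 and TCAP. Over all listed RNAs, 99.3% and 99.4% of anchor pairs inside the RNA's own gene were listed. An own RNA on an anchor therefore mostly restates that the RNA was listed. For MYH1, MYH2 and MYH4, the fast myosin heavy chains, no RNA was listed by name. The listed RNA ENSSSCG00000029441, chr12:55190429-55278539, spans all 3 genes, had 67876 and 74950 reads and was local on 12 anchor bins in each library. It therefore counts here under its own name, and all of the genes' anchor bins, 3, 5 and 3, held an RNA. These genes are closely similar paralogs side by side, so how their reads were assigned is uncertain.

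All 18 calcium handling genes had an anchor, and 95.5% of their 67 anchor bins had an RNA in both libraries. JPH1, which couples the surface and sarcoplasmic reticulum membranes, had its own RNA on 10 of 10 anchor bins, and the pump gene ATP2A1 on 3 of 3. All 20 glycolysis and glycogen genes had an anchor as well, with an RNA on 63.9% and 68.9% of 61 bins. PFKM and PKM had their own RNA on 5 of 5 anchor bins each. No RNA was listed in either library on the anchor bins of PGK1 and PHKA1 on X, or of HK2 on chromosome 3 and GBE1 on chromosome 13. On X only 6.06% and 9.90% of all anchors had any RNA. Myogenic regulators had an anchor in 14 of 16 genes and an RNA on 91.4% of 70 anchor bins in both libraries. TEAD1, a transcription factor of the Hippo pathway, had 23 anchor bins with 128 and 124 loop ends, and its own RNA was on all 23 in both libraries. MEF2C was alike, on 14 of 14. Such full counts are usual for a listed RNA, since 99.3% and 99.4% of all anchor pairs inside the RNA's own gene were listed. MYF5 and MYF6, neighbours on chromosome 5, had no anchor.

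Housekeeping genes had an anchor in 11 of 13 and an RNA on 81.2% of 16 bins. Of the genes that the study names, a list chosen by the study with these data in view, all 18 had an anchor, and 80.4% and 85.7% of their 56 anchor bins had an RNA. SESN1, a stress-induced regulator of metabolism, had its own RNA on 7 of 7 anchor bins, PRKAG3, the muscle AMPK gamma subunit, on 1 of 1 and LRRFIP1 on 5 of 5. These counts too are usual for a listed RNA inside its own gene (99.3% and 99.4% over all listed RNAs). DYSF, the membrane repair gene, had 8 anchor bins, with an RNA on 0 and 3 of them. Of the cell type markers, 3 of 8 adipocyte, 6 of 8 endothelial and blood vessel and 5 of 8 fibroblast genes had an anchor. In this order, an RNA was on 50.0% and 66.7% of 6 bins, 38.9% and 55.6% of 18 and 76.9% and 61.5% of 13. An anchor was also found for 2 of 8 immune and blood cell genes and 1 of 7 nerve genes, with an RNA on 66.7% of 3 and 0 of 3 bins. The nerve gene with an anchor was SYN1 on X, where only 6.06% and 9.90% of all anchors had an RNA and no RNA of X was listed. These lists describe which bins carried RNA and were not tested against other genes.

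By chromosome, the share with any RNA was higher on anchors on 19 of 19 in both libraries, by 1.32 to 1.77 times and by 1.71 to 2.67 times. For trans RNAs the ratio was above 1 on 16 of 19 and on 19 of 19, and was lowest on chromosome 8 in library 1, at 0.861. It was highest on chromosome 7, at 2.00 and 2.78, where ENSSSCG00000044834 counts as cis. Chromosome 12 had the densest anchors, 12.7% of its bins, and a trans RNA on 41.3% and 58.8% of them. X had the lowest shares, 6.06% and 9.90% of anchors and 4.15% and 3.71% of non-anchors, and no RNA of X itself was listed.

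LW RNA was also listed on anchors of the other breed. The 1640 bins that were an anchor in both MS lists and in neither LW list had an LW RNA in 37.7% and 49.4%, next to 36.4% and 48.4% of the 5162 bins that were anchors in LW alone. Bins that were an anchor in all 4 lists had 47.5% and 61.5% of 17805, and bins that were an anchor in no list 26.9% and 29.3%. A gene overlapped 76.2% of the MS-only and 74.9% of the LW-only anchors, and 80.5% of those in all 4 lists. Of all LW anchors, with or without an LW RNA, 80.7% had an RNA in at least 1 MS library, against 35.4% of the LW non-anchors. These shares count a bin listed in either MS library, whereas the LW shares above are of 1 library each.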

How the data were processed

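For BL-HiChIP the authors mapped reads to Sscrofa11.1 and called loops per library with FitHiChIP at 5 kb. The deposited value of a loop was read as an FDR, a p-value after adjustment, since it ends just under 0.01. For GRID-seq the authors mapped both ends with Bowtie2, version 2.2.5 by the submitters' processing notes, selected chromatin-enriched RNAs and corrected for background. In the deposited lists a whole number that is constant for each RNA was taken as its read count, and the other value of a row, from 0.02 up, as a background-corrected signal of that RNA in a 1-kb bin, relative to that RNA's reads. The lists carry no column names, so both readings rest on the values. BL-HiChIP contact depth was not analysed here.

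Here 1-kb values were summed to 5-kb bins, with 0 where nothing was listed and repeated rows (1256 and 2036) summed. Loops on Y (29 and 28) and 23 rows on Y were left out. Genes were placed by RefSeq's Sscrofa11.1 table, without strand. Chromosome lengths were taken as the last position seen. No genome sequence was used, so no sequence is shown. With 2 libraries per assay no test was run; libraries are compared by their values, means and SD. Named RNAs are the 10 with most trans or cis anchor bins or the largest local value among those in both libraries, of which 1 trans RNA is not reported here; named bins are among the 10 with most RNAs or loops. Calculations were tested on simulated data and ran in Python 3.11.15 (pandas 2.3.3, numpy 2.4.6, scipy 1.17.1, matplotlib 3.10.9). The members, gene lists and comparisons were chosen with earlier results of these data known. Finer distance classes, distance from the nearest anchor, comparisons within 1 RNA and results without ENSSSCG00000044834 were added after seeing the data, as were the summit alternative and the partner classes described under the processing alternatives.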

Additional observations from a re-analysis of the deposited data

How the results depend on the processing

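The limits are few libraries, smooth signal and depth: with 2 libraries per assay no test was run, since an exact test could not pass a threshold, library 2 listed more RNAs, and an RNA under the signal limit is at 0 here and not shown to be absent. All ratios of anchors to non-anchors, of joined to not joined and of over 10 loops to 1 stayed above 1 under each alternative that gave a value. Under the alternatives, 45 values of the main ratios moved by more than the spread between libraries, 83 did not, and 0 changed direction. Leaving out 1 GRID-seq library cannot move a mean of 2 by more than their SD, so those values are among the 83 by design. The causes of these moves were not tested. No paired analysis was possible because these results come from no test, and each ratio is already formed within 1 GRID-seq library.

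With 1 library left out in turn, the ratios ranged from 1.64 to 1.94 for any RNA, 2.11 to 2.70 for RNAs per bin, 8.91 to 13.1 for the local value, 4.18 to 5.04 for the cis value, 2.40 to 3.15 for the trans value, 1.68 to 1.84 for cis listing by distance, 1.46 to 2.14 for trans listing, 2.10 to 2.54 for joined bins and 1.42 to 1.57 for over 10 loops against 1. Without BL-HiChIP replicate 1 or 2 the local ratio was 8.91 or 9.47.

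Without ENSSSCG00000044834, chosen after seeing the data, the ratio was 2.63 for any RNA, 3.42 for RNAs per bin, 4.44 for the trans value and 3.19 for trans listing. Without it and ENSSSCG00000048037 it was 2.74, 3.46 and 4.82 for the first 3. With each listed stretch kept in its highest 5-kb bin alone, also chosen after seeing the data, it was 2.99 for any RNA, 3.25 for RNAs per bin, 13.5 for the local, 8.40 for the cis and 3.57 for the trans value.

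Against non-anchors within 100 kb of an anchor the ratio was 1.99 for RNAs per bin, 5.64 for the local and 2.46 for the cis value. In bins listed in an MS library it was 1.55 for any RNA, 1.96 for RNAs per bin, 5.83 for the local and 2.58 for the cis value. Over genes the local and cis ratios were 9.96 and 3.86, over no gene 14.7 and 8.83, with 2.06 for the trans value there, and far from listed RNA genes the cis ratio was 4.97 and a local ratio had no value. With anchors of either list the local and cis ratios were 10.4 and 4.44, with loops under 0.001 they were 15.1 and 5.36, and with chromosomes weighted equally 12.004 and 4.87. With RNAs listed in both libraries the local ratio was 14.8.

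Cis listing by distance was 2.00 with RNAs weighted equally and 2.02 within the same RNA. Joined bins were at 2.28 with loops of either list, 2.26 without RNAs whose gene has no loop, and 2.26 with 6 distance classes and 1.27 within the same RNA, both chosen after seeing the data.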
